A study of Mus musculus with 6 samples.

Results

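The V gene segments of the T cell receptor alpha and beta chains were examined in RNA from regulatory T cells (Treg cells) sorted out of mouse melanomas. Members were all rows that GENCODE M21 types as functional T cell receptor V genes and whose symbol starts with Trav or Trbv. This gave 108 Trav and 22 Trbv segments, 130 of the 54446 genes counted. The measure is the share of each segment, its read count as a percent of all counts of its chain's V segments in that library.

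The study sequenced total RNA of 6 libraries to ask how gene expression in Treg cells changes when Ythdf2, which encodes a reader of m6A-marked mRNA, is knocked out. B16F10 melanoma cells were grown under the skin, lymphocytes were enriched from the tumours with CD4 microbeads, and live CD45+ CD4+ Foxp3-GFP+ cells were sorted. Both groups carry Foxp3Cre, a Cre recombinase driven from the Foxp3 gene and so expected in Treg cells. The 3 controls are titled WT Control, but their genotype is given as Foxp3Cre Ythdf2 fl/+, with 1 floxed allele. The 3 libraries labelled Ythdf2 cKO are Foxp3Cre Ythdf2 fl/fl. The labels also name 2 cages: control 1, control 2 and labelled cKO 1 belong to cage 1, while control 3, labelled cKO 2 and labelled cKO 3 belong to cage 2. The labels give no age and do not state whether the libraries of a group came from different mice. P-values here therefore reflect how much these samples vary, and that variation may be technical. Values are listed in the order control 1, 2 and 3, then labelled cKO 1, 2 and 3.

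A V segment is joined to a J segment (alpha chain) or to a D and a J segment (beta chain) by recombination of the DNA while a T cell matures. All descendants of that cell then transcribe the same joined gene, so a clone that has grown large adds its V segment to the RNA of the whole sample. The germline end of the V segment supplies the first residues of the CDR3 loop, the part of the receptor that differs most between clones. Mouse Trav segments lie in an array that was duplicated during evolution, and copies carry the letters d and n in their names. Segments with "dv" in the name can also be joined to the delta chain.

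The ends of the segments on which the results turn are shown first. Each line holds the last 60 bases of the annotated GENCODE M21 transcript (mm10), 5′ to 3′, and the capitals mark the germline start of CDR3, from the last in-frame cysteine codon to the end of the segment. The beta segments are the 3 that lead at least 1 library (Trbv3, Trbv13-2, Trbv15), Trbv12-1, which had the next smallest p between cages, and Trbv31, which lies inverted beyond the constant genes.
Trbv3 (chr6:41048290-41048828, + strand): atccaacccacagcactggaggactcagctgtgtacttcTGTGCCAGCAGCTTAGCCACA
Trbv13-2 (chr6:41121396-41121832, + strand): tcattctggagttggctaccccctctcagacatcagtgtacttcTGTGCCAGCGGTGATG
Trbv15 (chr6:41141188-41141658, + strand): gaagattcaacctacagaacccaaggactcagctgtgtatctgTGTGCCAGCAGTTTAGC
Trbv12-1 (chr6:41113550-41114067, + strand): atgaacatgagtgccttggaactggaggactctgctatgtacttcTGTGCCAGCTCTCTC
Trbv31 (chr6:41557691-41558452, - strand): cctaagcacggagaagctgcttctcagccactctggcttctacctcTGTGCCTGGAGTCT

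The alpha segments include those that lead a library (Trav14n-3, Trav8d-2, Trav15-2-dv6-2, Trav8-1, Trav16n). Trav8d-1 and Trav10d are set beside Trav8-1 and Trav10 because each pair ends in the same 60 letters, and Trav11 and Trav11d because invariant NKT cells use this subgroup.
Trav14n-3 (chr14:53370077-53370575, + strand): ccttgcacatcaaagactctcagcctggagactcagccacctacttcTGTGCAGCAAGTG
Trav8d-2 (chr14:53042428-53042891, + strand): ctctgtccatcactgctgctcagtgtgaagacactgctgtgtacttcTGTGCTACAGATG
Trav8-1 (chr14:53469756-53470232, + strand): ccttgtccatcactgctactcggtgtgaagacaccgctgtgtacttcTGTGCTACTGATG
Trav8d-1 (chr14:52778447-52778995, + strand): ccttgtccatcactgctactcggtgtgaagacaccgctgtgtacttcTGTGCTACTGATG
Trav15-2-dv6-2 (chr14:53649404-53649994, + strand): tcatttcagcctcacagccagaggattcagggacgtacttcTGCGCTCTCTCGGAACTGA
Trav16n (chr14:53351028-53351621, + strand): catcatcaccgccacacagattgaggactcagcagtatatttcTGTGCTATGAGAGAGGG
Trav10 (chr14:53505727-53506286, + strand): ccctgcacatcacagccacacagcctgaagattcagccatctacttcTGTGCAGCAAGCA
Trav10d (chr14:52810934-52811496, + strand): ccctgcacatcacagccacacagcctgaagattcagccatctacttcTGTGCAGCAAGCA
Trav11 (chr14:53519303-53519859, + strand): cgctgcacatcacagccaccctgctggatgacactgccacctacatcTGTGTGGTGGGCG
Trav11d (chr14:52824357-52824912, + strand): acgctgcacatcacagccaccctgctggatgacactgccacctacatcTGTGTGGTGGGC

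Libraries held 5602053 to 13602069 gene counts, and the V segments took a small part of them. Trav segments drew 1079, 1343, 368, 418, 818 and 537 counts, and Trbv segments drew 1623, 1648, 477, 756, 1237 and 606. Control 3 stood apart before any V segment was examined: 42.6% of its gene counts were mitochondrial rRNA, against 9.97% to 19.2% in the other libraries. Cage moved with the makeup of the samples. Summed melanoma markers (6 of 6 genes found) were at 46.1 to 493 CPM (gene counts scaled to the library total) in cage 1 and 2300 to 3249 CPM in cage 2, and summed Treg markers (6 of 6) at 5596 to 6350 CPM and 2260 to 4574 CPM. In bulk RNA, fewer cells of a type and less RNA per cell cannot be told apart. Foxp3 and Cd4, the genes of the sort, were present in every library, and the transcript of Ythdf2 itself did not differ between genotypes past the threshold (log2 fold change -0.10, SE 0.16, edgeR quasi-likelihood test, adjusted p = 1), so groups are named as labelled.

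Shares that did not overlap between groups were few. Between genotypes this held for 5 of the 89 members with a count, 1 higher and 4 lower in the labelled cKO libraries, and over all genes tested 3.4% lay higher and 4.22% lower in CPM without overlap. Between cages it held for 10 members, 7 higher and 3 lower in cage 2, beside 15.1% higher and 12.2% lower over all genes tested. The members' percents were 1.12% higher and 4.49% lower by genotype, and 7.87% higher and 3.37% lower by cage. The 2 sets are unlike: members were compared by share, without a filter on low counts, and all genes by CPM after that filter. A segment with counts in a single library cannot separate the groups. In CPM, 38 members passed the filter. Of these, 0 lay higher and 1 lower by genotype, and 1 higher and 5 lower by cage.

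Beta chain use was broad, and a few segments carried most of it. Of the 22 Trbv segments, 21 had a count and 15 had counts in all 6 libraries. Trbv4 had none, and Trbv21 had 4 counts, all in control 1. Trbv3 had the highest share in controls 1, 2 and 3 and in labelled cKO 1, Trbv13-2 in labelled cKO 2 and Trbv15 in labelled cKO 3. By mean count share over the libraries the order was Trbv3 (19.3%), Trbv13-2 (12.4%), Trbv15 (12.1%), Trbv19 (9.15%), Trbv16 (6.44%), Trbv2 (6.13%) and Trbv20 (5.61%). A longer segment collects more reads, so levels were also compared per base of annotated exon. On that scale Trbv3 (17.1%), Trbv13-2 (14.6%) and Trbv15 (13.1%) kept the first ranks, and Trbv20 (6.72%), Trbv16 (6.48%) and Trbv19 (6.47%) followed.

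**Figure D1:**
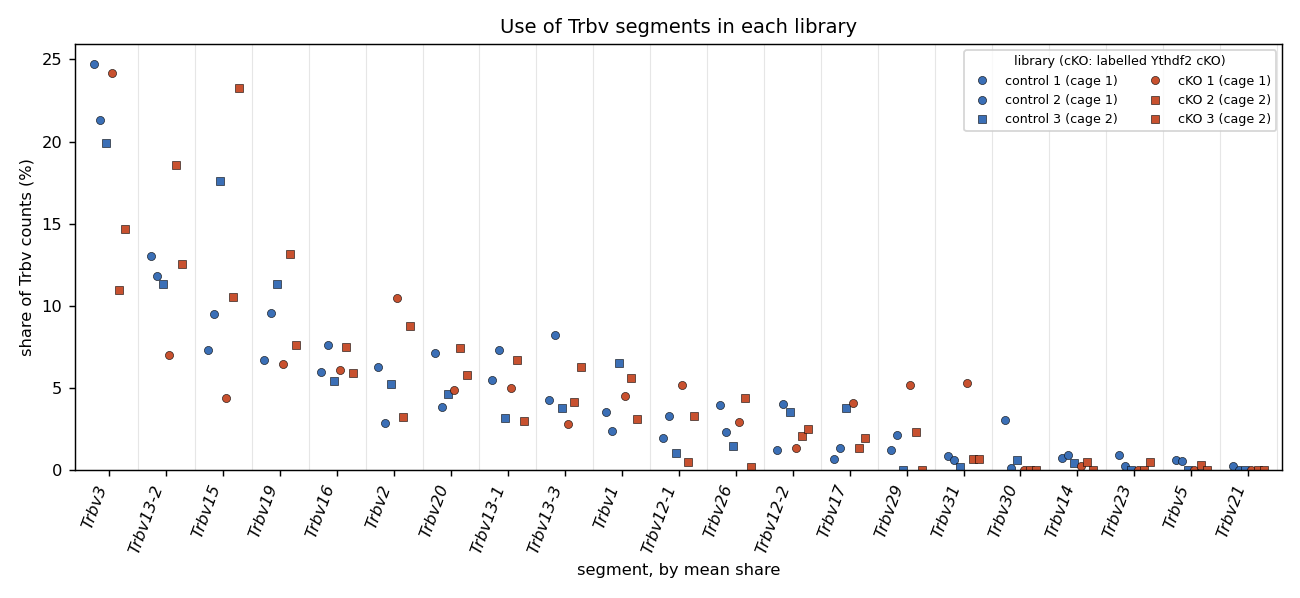
Share of each Trbv segment in percent of all Trbv counts of a library (vertical axis) for the 21 segments with a count (horizontal axis, ordered by mean share). Each point is 1 library, blue for controls and red for labelled Ythdf2 cKO, circles for cage 1 and squares for cage 2; the squares of Trbv3 all lie below its circles, and those of Trbv15 all lie above.

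Trbv3, known as V beta 16 in the older names, took 24.7%, 21.3% and 19.9% of Trbv counts in controls 1, 2 and 3 and 24.2%, 11.0% and 14.7% in labelled cKO 1, 2 and 3. All 3 libraries of cage 2 lay below all 3 of cage 1, while the genotypes overlapped. Counting error alone gave a 95% Clopper-Pearson interval of 16.4% to 23.8% for control 3 and 9.30% to 12.9% for labelled cKO 2. Such intervals cover counting error only, since reads are not independent molecules and cells of a clone share a segment.

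Trbv15 (V beta 12) ran the other way, with 7.33%, 9.53% and 17.6% in the controls and 4.37%, 10.5% and 23.3% in the labelled cKO libraries. Its cage 2 shares all exceeded its cage 1 shares, and again the genotypes overlapped. In control 3 the interval was 14.3% to 21.3%, and in labelled cKO 1 it was 3.02% to 6.08%. Trbv13-2 (V beta 8.2) took 13.1%, 11.8% and 11.3% in the controls, against 7.01%, 18.6% and 12.5%. Its labelled cKO shares lay on both sides of the controls. Trbv19 (V beta 6) took 6.72%, 9.59% and 11.3% in the controls and 6.48%, 13.2% and 7.59% in the labelled cKO libraries, and its groups overlapped by genotype and by cage.

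Some beta segments were frequent in a single library. Trbv31 took 5.29% of Trbv counts in labelled cKO 1 (40 counts, interval 3.81% to 7.14%) and 0.21% to 0.86% in the other libraries. Trbv30 took 3.08% in control 1 (50 counts), 0.12% and 0.63% in controls 2 and 3, and had no count in the labelled cKO libraries. It was the sole Trbv segment whose shares did not overlap between genotypes, and 50 of its 55 counts came from control 1. Trbv29 took 1.23%, 2.12% and 0% in the controls and 5.16%, 2.34% and 0% in the labelled cKO libraries. With a limit of 3 counts of the chain total, which differs from the exact intervals above, the counts of 0 in control 3 and labelled cKO 3 allow a share of up to 0.629% and 0.495%, below the shares of Trbv29 in the other 4 libraries. Trbv2 (V beta 4) ranged from 2.85% in control 2 to 10.4% in labelled cKO 1, whereas Trbv16 stayed between 5.45% and 7.65% in all 6.

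Alpha chain use was spread over more segments and was less alike between libraries. Of the 108 Trav segments, 68 had a count, 19 had counts in all 6 libraries, and 10 had counts in a single library. No Trav segment had the highest share in more than 2 libraries. Trav14n-3 led controls 1 and 2, Trav8d-2 led control 3, Trav15-2-dv6-2 led labelled cKO 1, Trav8-1 led labelled cKO 2 and Trav16n led labelled cKO 3. By mean count share the highest were Trav8d-2 (6.44%), Trav14n-3 (6.03%), Trav4-4-dv10 (5.42%), Trav10 (4.83%), Trav19 (4.24%), Trav8-1 (3.62%), Trav3-3 (3.51%) and Trav14-3 (3.33%). Per base of exon, the first 4 kept that order.

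**Figure D2:**
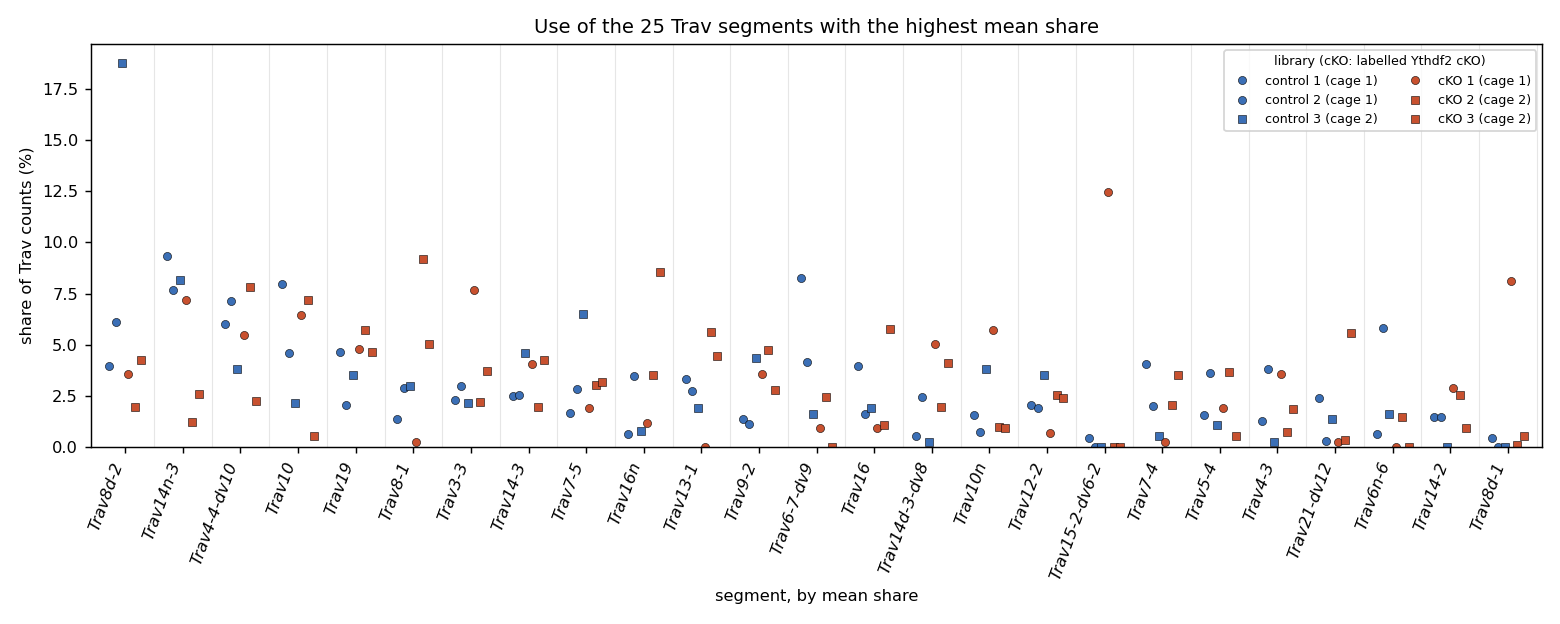
Share of each Trav segment in percent of all Trav counts of a library (vertical axis) for the 25 segments with the highest mean share (horizontal axis). Each point is 1 library, coloured and shaped as for Trbv; single points stand far above the rest for Trav8d-2 in control 3 (18.8%), Trav15-2-dv6-2 in labelled cKO 1 (12.4%) and Trav16n in labelled cKO 3 (8.57%).

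Trav8d-2 took 3.99%, 6.11% and 18.8% of Trav counts in the controls and 3.59%, 1.96% and 4.28% in the labelled cKO libraries. Control 3 was far above the rest, with 69 of 368 counts and an interval of 14.9% to 23.1%. Without it the shares ran from 1.96% to 6.11%. Trav14n-3 took 9.36%, 7.67% and 8.15% in the controls and 7.18%, 1.22% and 2.61% in the labelled cKO libraries. All labelled cKO shares lay below all control shares, with labelled cKO 1 near the controls.

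Trav15-2-dv6-2 took 12.4% in labelled cKO 1 (52 of 418 counts, interval 9.43% to 16.0%), 0.46% in control 1 and had no count in the other 4 libraries. This segment can also join the delta chain. The delta constant gene Trdc, a defining marker of gamma delta T cells, had no count in labelled cKO 1, nor did the other 4 gamma delta markers found in the files, while the delta V genes outside the rule had 6 counts there. In the same library Trav8d-1, described after its value was seen, took 8.13% against 0% to 0.56% elsewhere.

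Trav8-1 took 1.39%, 2.90% and 2.99% in the controls and 0.24%, 9.17% and 5.03% in the labelled cKO libraries. Labelled cKO 1 was the lowest and labelled cKO 2 and 3 the highest of the 6, so the genotypes overlapped. The cages did not overlap but came close to each other, with 2.90% in control 2 and 2.99% in control 3. Trav16n took 0.65%, 3.50% and 0.82% against 1.20%, 3.55% and 8.57%. Trav6-7-dv9 took 8.25%, 4.17% and 1.63% in the controls and 0.96%, 2.44% and 0% in the labelled cKO libraries, with overlap between the genotypes.

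Trav10 took 7.97%, 4.62% and 2.17% in the controls and 6.46%, 7.21% and 0.56% in the labelled cKO libraries. Trav4-4-dv10 was among the 3 highest by mean share, at 6.02%, 7.15% and 3.80% against 5.50%, 7.82% and 2.23%. For both segments the lowest shares of each genotype came from control 3 and labelled cKO 3. Trav19 was the sole Trav segment whose labelled cKO shares all lay above the control shares, at 4.78%, 5.75% and 4.66% against 4.63%, 2.08% and 3.53%. The groups there came close to each other, with 4.63% in control 1 and 4.66% in labelled cKO 3.

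Segments typical of other T cell types had few counts or none. Trav1, used by MAIT cells, had 17 counts in all and shares of 0.37%, 0.30% and 0% in the controls and 0.48%, 0.12% and 1.12% in the labelled cKO libraries. Trav11 and Trav11d had no count in any library. Their annotated sequences hold no 50-base word that another V segment lacks, and whether their reads fell among those aligned to several places, 9.22% to 12.9% of records, was not tested. The n copy of this subgroup, Trav11n, is typed as a pseudogene and lies outside the rule. It had 1, 5 and 2 counts in the controls and 0, 9 and 16 in the labelled cKO libraries. Traj18, the J segment of the invariant NKT receptor, took 4.49% to 7.70% of Traj counts, while all NKT and NK markers together stood at 1.07 CPM or less (Klrb1c and Klra4 at 0 in every library). Counts over a J segment do not show which V segment it was joined to, and whether they reflect J use was not tested. The J pseudogene Traj14, outside these shares, had 117 counts.

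Many Trav segments have copies of nearly the same sequence. Each segment's transcripts were cut into 50-base words, and the share of words found in no other V segment was taken. Of the 40 Trav segments with no count, 26 have the same sequence as another segment, 31 hold no unique word and 37 have under 20% unique words. Of the 55 Trav segments with at least 10 counts, none was without a unique word and 4 had under 20%, and their median was 58.0%. Every Trbv segment was at 98.8% to 100%. Trav18, at 100%, and Trav7n-6 and Trav6d-5, at 56.6% and 56.1%, also had no count.

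**Figure D3:**
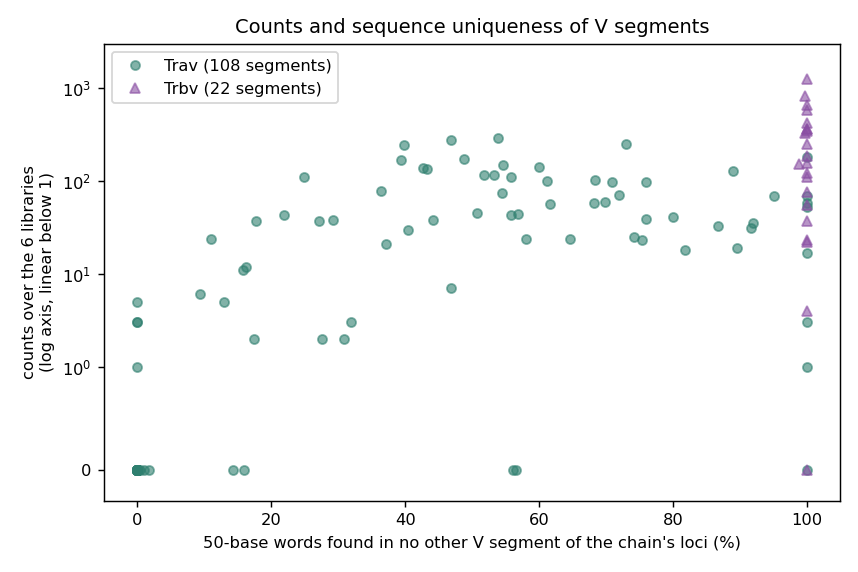
Counts of each V segment over the 6 libraries (vertical axis, log scale, linear below 1) against the percent of its 50-base words found in no other V segment (horizontal axis). Green circles are the 108 Trav and purple triangles the 22 Trbv segments; most Trav segments without counts lie at or near 0% and all Trbv segments lie at the right edge.

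The d copies of the duplicated array (34 segments) drew 7.41%, 11.9% and 24.2% of Trav counts in the controls and 19.9%, 5.99% and 12.7% in the labelled cKO libraries. Control 3 and labelled cKO 1, where Trav8d-2 and Trav8d-1 were high, had the highest values. The n copies (28 segments) varied less, from 14.7% to 20.3%. Many d and n copies hold no unique word and had no count, so sums over copies or subgroups rest on the remaining segments. Whether the copies without a count were expressed was not tested. Summed by subgroup, Trav14 (9 segments) took a mean of 14.5% of Trav counts, Trav8 (4 segments) 13.1% and Trav7 (13 segments) 9.31%. Trav7 stood at 2.39% in labelled cKO 1 and at 8.31% to 12.5% in the other libraries.

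Evenness was measured as the effective number of segments, the exponential of the Shannon entropy of the shares, which equals the number of segments if all are used alike. For Trbv it was 12.8, 12.6 and 11.1 in the controls and 12.9, 12.2 and 10.6 in the labelled cKO libraries. The genotype means were 12.1 ± 0.92 and 11.9 ± 1.16 (SD, n = 3 each, exact two-sided permutation p = 0.7). By cage the means were 12.7 ± 0.15 and 11.3 ± 0.81 (SD, n = 3 each, exact permutation p = 0.1), without overlap. The difference was -1.59 among the controls and -1.49 among the labelled cKO libraries, and -1.35 over both genotypes without control 3. Taken at the smallest Trbv total or per base of exon, the effective number also separated the cages. The share of the 5 leading Trbv segments was 54.2% to 60.5% in cage 1 and 60.8% to 66.8% in cage 2, without overlap. Some measures of Trbv evenness did overlap between the cages: the shares of the leading segment and of the 3 leading segments, and the 2 that follow. The inverse Simpson number, which gives frequent segments more weight, had cage means of 9.52 ± 0.38 and 9.05 ± 0.86 (SD, n = 3 each, exact permutation p = 0.4). The effective number of Trbv subgroups ran from 8.90 to 10.7 in cage 1 and from 8.29 to 9.22 in cage 2. With 3 libraries against 3 no exact two-sided p can fall below 0.1, and after Benjamini-Hochberg adjustment over the 32 tests of library measures none was below 0.71. The Treg and melanoma marker sums moved with cage in the same libraries, and their part in the cage difference of the effective number was not tested.

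For Trav the effective number was 34.1, 35.2 and 26.5 in the controls and 21.9, 30.6 and 30.9 in the labelled cKO libraries. Labelled cKO 1, where Trav15-2-dv6-2 and Trav8d-1 were high, was the lowest and control 3, where Trav8d-2 was high, the next. The means were 32.0 ± 4.72 and 27.8 ± 5.10 by genotype (SD, n = 3 each, exact permutation p = 0.4) and 30.4 ± 7.40 and 29.3 ± 2.41 by cage (SD, n = 3 each, exact permutation p = 1). Without control 3 the genotype difference of -4.19 became -6.90, and without labelled cKO 1 it became -1.25. The number of Trav segments with a count was 59, 51 and 46 in the controls and 33, 44 and 42 in the labelled cKO libraries. These ranges did not overlap (exact permutation p = 0.1, adjusted p = 0.71). Depth differed between the libraries. At the smallest Trav total, that of control 3, the expected numbers were 50.8, 46.4 and 46 in the controls and 32.5, 41.3 and 41.0 in the labelled cKO libraries, still without overlap.

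**Figure D4:**
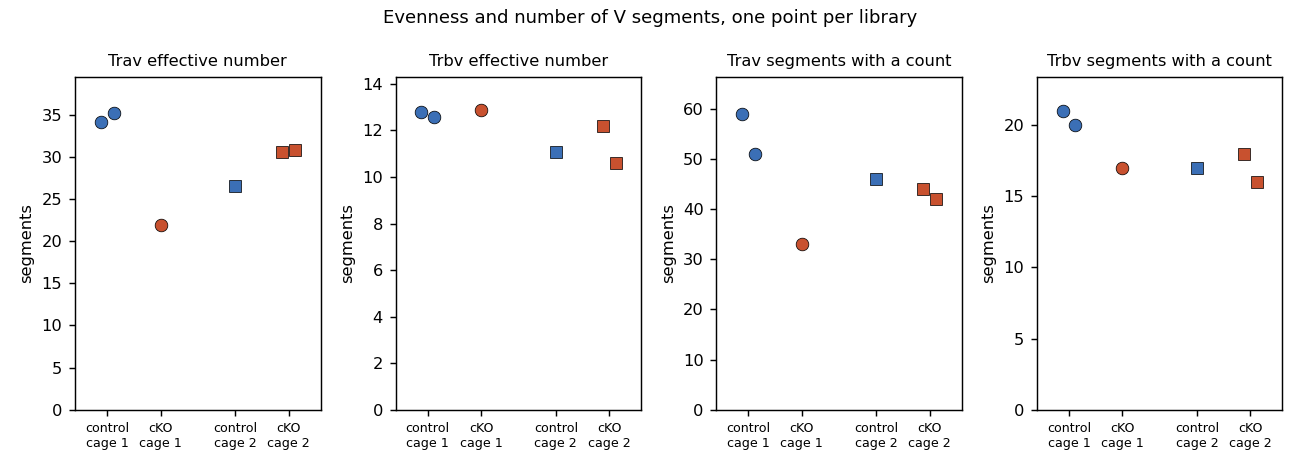
Effective number of segments and number of segments with a count for Trav and Trbv (vertical axes, segments), 1 point per library, by genotype (blue controls, red labelled Ythdf2 cKO) and cage (circles for cage 1, squares for cage 2; horizontal axes). The Trbv effective number is lower in all 3 cage 2 libraries (10.6 to 12.2) than in cage 1 (12.6 to 12.9), and fewer Trav segments have a count in the labelled cKO libraries (33 to 44) than in the controls (46 to 59).

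Dissimilarity of 2 libraries is the percent of the share that their profiles do not have in common. For Trav it ran from 30.9% (controls 1 and 2) to 59.7% (labelled cKO 1 and 3), and for Trbv from 17.7% (control 3 and labelled cKO 3) to 35.3% (labelled cKO 1 and 2). Libraries of the same genotype were on average 46.5% apart for Trav, against 47.8% between genotypes (exact permutation p = 0.6). For Trbv the means were 26.2% within and 23.4% between genotypes (exact permutation p = 0.2). By cage they were 46.0% within and 48.2% between for Trav, and 22.6% within and 25.8% between for Trbv (exact permutation p = 0.2 for each). Swapping the labels of the groups leaves this difference unchanged, so the exact permutation p of a dissimilarity cannot fall below 0.2. The ranges of pairs with the same label and of pairs with different labels overlapped for Trav and for Trbv, by genotype and by cage.

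**Figure D5:**
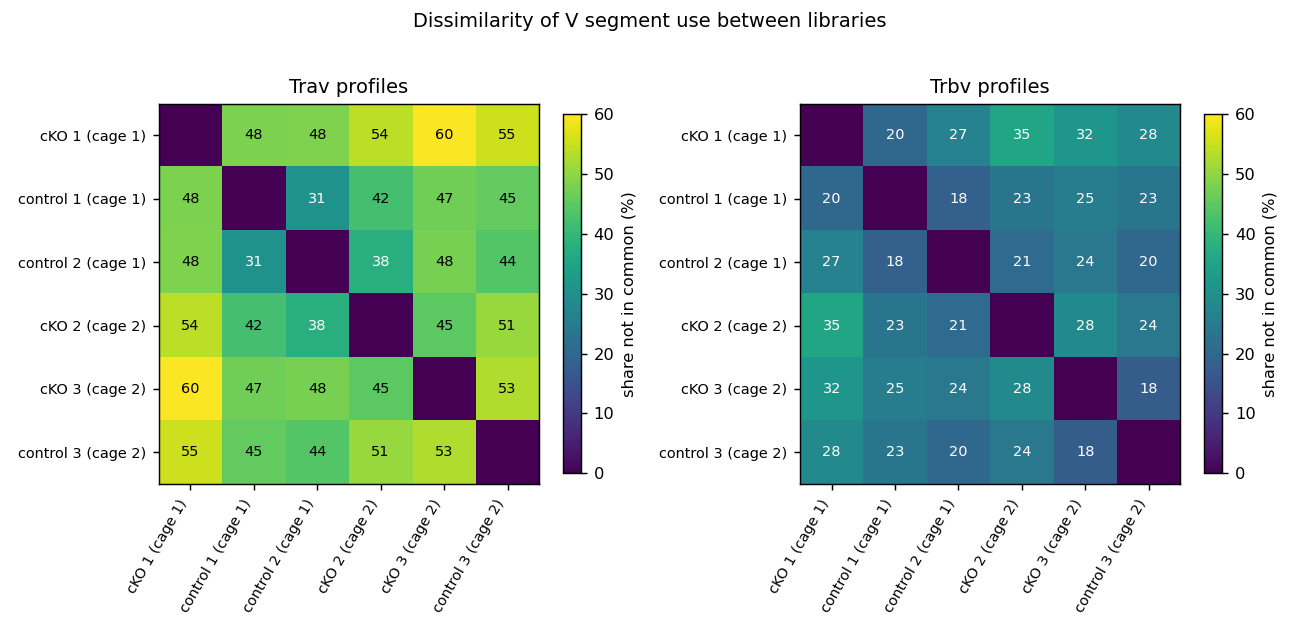
Share not in common, in percent, between each pair of the 6 libraries for Trav (left) and Trbv (right), with both axes listing the libraries by cage. Trav pairs lie between 30.9% and 59.7% and Trbv pairs between 17.7% and 35.3%, and labelled cKO 1 is the most distant library in the Trav panel.

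Levels of single segments were then tested between genotypes across all genes with edgeR, with p-values adjusted over all 13172 genes that passed the filter on low counts. Only 38 of the 130 members passed that filter, 23 Trav and 15 Trbv, so the members below do not stand for all V segments. No member passed the threshold, and nor did any other gene (0% of genes tested). At an unadjusted p under 0.05 there were 213 genes and 1 member, Trav8d-2, and DESeq2 also called no member. With cage as a term 1345 genes and 2 members had an unadjusted p under 0.05, and again no gene passed the threshold. Trav8d-2 stood at 3.79, 5.54 and 10.8 CPM, scaled by TMM library sizes, in the controls and at 2.45, 1.54 and 2.37 CPM in the labelled cKO libraries, a log2 fold change of -1.66 (SE 0.58, edgeR adjusted p = 1). Its labelled cKO values were all below the control values, the sole member of the 38 with that pattern, against 4.22% of all genes tested. No member lay above every control, against 3.4% of genes. Trav14n-3 had the next smallest p (log2 fold change -1.51, SE 0.71). In the other direction Trav14d-3-dv8 (1.25, SE 0.99) and Trav9-2 (0.69, SE 0.72) had the smallest p. Of the 38 members 17 were above 0 and 21 below, with a median log2 fold change of -0.066 beside -0.0049 over all genes. The sign of the member median was not stable: with cage as a term 22 were above 0 and 16 below, with a median of 0.17, and leaving out 1 library gave, over the 40 to 53 members that then passed the filter, -0.60 (without labelled cKO 2) to 0.26 (without control 1).

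Between cages, 849 genes passed the threshold (6.45% of genes tested, edgeR adjusted p) and 1 of the 38 members was among them. Trbv3 stood at 35.3, 23.7 and 29.9 CPM in control 1, control 2 and labelled cKO 1 of cage 1 and at 14.9, 13.1 and 9.19 CPM in control 3, labelled cKO 2 and labelled cKO 3 of cage 2. All cage 2 values lay below all cage 1 values, a log2 fold change of -1.26 (SE 0.28, edgeR adjusted p = 0.025). The call was lost without control 1 (edgeR adjusted p = 0.084), control 2 (0.054), control 3 (0.085), labelled cKO 2 (0.052) or labelled cKO 3 (0.12), each with a log2 fold change between -1.40 and -1.08. It held without labelled cKO 1 and with DESeq2. Without labelled cKO 2 the called member was Trbv29 in its place.

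In CPM, 5 of the 38 members lay below every cage 1 library in cage 2 (Trbv3, Trav14n-3, Trav4-3, Trav3-3 and Trbv12-1), beside 12.2% of all genes. Trbv15 alone lay above, beside 15.1% of all genes. Trbv12-1 (log2 fold change -1.87, SE 0.76, edgeR adjusted p = 0.20) and Trav14n-3 (-1.58, SE 0.66, edgeR adjusted p = 0.22) did not pass. Trbv15 (0.59, SE 0.35, edgeR adjusted p = 0.40) and Trav8-1 (1.46, SE 0.91, edgeR adjusted p = 0.43) had the smallest p among members with higher values in cage 2. Of the 38 members 12 were above 0 and 26 below, with a median of -0.46 beside -0.0094 over all genes. Leaving out 1 library gave, over the members that then passed the filter, medians from -0.87 (without labelled cKO 2) to -0.34 (without labelled cKO 3). When libraries were scaled by total counts alone, the median of all genes moved to -0.23 by cage and 0.14 by genotype, and the member medians to -0.68 and 0.05.

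The constant regions and signalling chains of the receptor were tested in the same way. Of the constant genes Trac, Trbc1 and Trbc2 and the CD3 genes Cd3d, Cd3e, Cd3g and Cd247, which encode the signalling chains, 3 of 7 passed the threshold between cages, all lower in cage 2, beside 849 of 13172 genes called, of which 146 were lower. Cd3g stood at 476, 514 and 476 CPM in control 1, control 2 and labelled cKO 1 and at 239, 326 and 292 CPM in the cage 2 libraries (log2 fold change -0.77, SE 0.14, edgeR adjusted p = 0.013). Trbc1, which encodes 1 of the alternative beta constant regions, changed by -0.74 (SE 0.15, edgeR adjusted p = 0.020) and Cd3e by -0.56 (SE 0.14, edgeR adjusted p = 0.045). The CPM values of these 3 genes did not overlap between cages. Nor did those of Cd3d and Trbc2, while those of Trac and Cd247 overlapped. Over all genes tested 12.2% lay lower in cage 2 without overlap. Each call was lost in some settings: that of Cd3g without control 2, control 3 or labelled cKO 3 and when libraries were scaled by total counts alone, that of Trbc1 without control 2, control 3, labelled cKO 2 or labelled cKO 3, and that of Cd3e without any library other than labelled cKO 2, when scaled by total counts alone and with the filter at a mean CPM of 5. Cd3d (-0.49, edgeR adjusted p = 0.058), Trac (-0.45, 0.20), Trbc2 (-0.44, 0.19) and Cd247 (-0.38, 0.25) did not pass, although DESeq2 called Cd3d, and Trbc2 and Cd247 passed without labelled cKO 2. None of the 7 passed between genotypes, and Ptcra, Rag1, Rag2 and Dntt, genes of receptor assembly in the thymus, were below the filter. Of these, Dntt had 2, 0 and 0 counts in the controls and 0, 37 and 7 in the labelled cKO libraries. The summed Treg markers were lower and the melanoma markers higher in the same cage 2 libraries. Their part in the cage differences of the constant and CD3 genes was not tested.

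Set against the constant region, V segment totals overlapped between the cages. Trbv counts per 100 Trbc counts were 72.7, 59.0 and 56.8 in the controls and 60.7, 78.2 and 55.1 in the labelled cKO libraries, with cage means of 64.1 ± 7.50 and 63.4 ± 12.9 (SD, n = 3 each, exact permutation p = 0.9). Trav counts per 100 Trac counts were 26.0, 19.0 and 24.6 against 17.0, 21.0 and 18.4, with genotype means of 23.2 ± 3.73 and 18.8 ± 2.06 (SD, n = 3 each, exact permutation p = 0.2).

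The mean distance of the V segments from the constant region, weighted by share, was 721 to 833 kb for Trav and 409 to 430 kb for Trbv, and groups overlapped by genotype and by cage for Trav and Trbv. Among J segments, 48 of 51 Traj and 13 of 13 Trbj had a count. Traj6 had the highest share of Traj counts over the libraries, at 16.1% to 24.2%. Trbj totals were 17 to 106 counts per library and were not compared further. The J pseudogene Trbj2-6, outside these totals, had 125 counts over the libraries. Trbc1 made up 40.1%, 43.1% and 42.6% of beta constant counts in the controls and 43.1%, 30.2% and 40.1% in the labelled cKO libraries, lowest in labelled cKO 2.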

How the data were processed

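Total RNA of 6 libraries, 3 per genotype and 3 per cage, was sequenced after preparation with a SMARTer stranded kit, per the labels. The authors deposited raw read counts per gene, 1 table per library. Trimmomatic 0.39, HISAT2 2.1.0, mm10, HTSeq and DESeq2 are named in the submitters' processing notes, while annotation release, strand setting and read length were not given in the sources used here. Of 54446 gene rows 54409 matched GENCODE M21 by identifier, which gave gene types, symbols, coordinates and the printed sequences. Older beta names came from the RefSeq gene table. Rows naming no gene stayed out of totals; reads in no gene were 24.6% to 35.8% of records and ambiguous reads 1.43% to 2.21%.

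Shares are counts over the chain's V total, with exact Clopper-Pearson 95% intervals. After filterByExpr (minimum count 10) and TMM scaling, genes were tested by quasi-likelihood in edgeR 4.0.16 (R 4.3.3), with genotype or cage as the only term, all 6 libraries in each fit and Benjamini-Hochberg adjustment at 0.05. Both comparisons use the same 6 libraries. CPM values rest on TMM-scaled library sizes and marker sums on total gene counts. DESeq2 1.42.0 was an alternative. Measures per library were compared with exact permutation tests, two-sided. The gene test was tried on simulated counts, and the measures were checked on small constructed inputs with known answers.

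Named segments were, per chain, the 8 with the highest mean share, the 4 with the widest range, each library's leading segment, the 2 in each direction with the smallest p per comparison, and Trav1, Trav11, Trav11d and Trbv31. Trav8d-1, Trav10d and the other segments mentioned outside this rule were chosen after their values were seen. The members and lists were chosen with earlier results of these data known.

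Same-numbered libraries of the genotypes share a cage for numbers 1 and 3 and not for number 2. Their deviations correlated at 0.41 and 0.55 for numbers 1 and 3 and at -0.24 for number 2, so the numbers were not taken as pairs.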

Additional observations from a re-analysis of the deposited data

Results flagged for a closer look

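Several Trav measures moved one way between genotypes in cage 1 and the other way in cage 2, with every labelled cKO library on one side of every control in each cage. The labelled cKO minus control difference in the Trav effective number was -12.8 segments in cage 1 and 4.16 in cage 2. For the inverse Simpson number, which gives frequent segments more weight, it was -8.67 and 8.82. The share of the leading Trav segment differed by 3.93 and -9.88 percentage points, and the share-weighted distance from the constant region by 56.3 and -94.1 kb. In cage 1 the labelled cKO side is the single library with Trav15-2-dv6-2 at 12.4%, and in cage 2 the control side is the single library with Trav8d-2 at 18.8%.

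Among single segments the same turn of direction was seen for Trav14-3 (1.55 points in cage 1 and -1.50 in cage 2), Trav8-1 (-1.91 and 4.11) and Trbv13-2 (-5.44 and 4.25). None of these differences between cages was tested, since each rests on 1 library on 1 side.

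Counts also fell on V genes that the rule leaves out. Over the 6 libraries there were 67 counts on alpha V pseudogenes, 55 on beta V pseudogenes, 44 on delta V genes, 7 on gamma V genes and 7 on V genes known only by a clone name. The delta constant gene Trdc had 22, 18 and 3 counts in the controls and 0, 0 and 12 in the labelled cKO libraries.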

How the results depend on the processing

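The count of 0 V segments past the threshold by genotype was the same in all 15 alternatives. By cage the count of 1 became 2 with no low-count filter (Trbv3 and Trav15-2-dv6-2), and 0 to 1 when each library was left out, with 0 without control 1, control 2, control 3 or labelled cKO 3. Trbv3 stayed lower in cage 2 in every alternative fitted. The Trav effective number by cage (-1.08) turned to 0.36 as the mean of the differences within genotypes, and leaving out each library gave -5.34 to 1.33. The Trbv effective number by genotype (-0.26) turned to 0.050 with reads summed per V subgroup, 0.16 as the inverse Simpson number and 0.25 as the mean of the differences within cages; leaving out each library gave -0.79 to 0.38. Between minus within dissimilarity, in percentage points and with each library left out, ran from -2.17 to 5.08 for Trav by genotype (1.30), from -6.47 to 0.39 for Trbv by genotype (-2.77) and from -0.75 to 5.05 for Trav by cage (2.22). The cause of these turns was not tested. The Trav effective number by genotype and the Trbv effective number and dissimilarity by cage kept their direction in every alternative, but not their size: leaving out each library gave -6.90 to -1.25, -1.90 to -1.11 and, for the dissimilarity of 3.20 points, 0.68 (without labelled cKO 1) to 5.24. In all, 98 alternative values of summary measures kept direction and side of the threshold, 14 turned direction and 5 counts moved. Values with an exact permutation p could not change side of the 0.05 threshold, since that p cannot fall below 0.1. For them the label tells of direction alone. Counts per base of exon and leaving out Trav segments with under 20% unique words were alternatives chosen after seeing the data. With the replicate number as a block, edgeR called 0 V segments by genotype (3 with an unadjusted p under 0.05) and the Trav effective number differed by -4.19. The filter at a mean CPM of 5 left 9 V segments, all Trbv. Totals of 368 to 1343 Trav counts per library limit what can be seen: by the limit of 3 counts, a segment with no count may still hold up to 0.815% in control 3 and 0.223% in control 2.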
